A study of Homo sapiens with 4 samples.

Results

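The genes described here are transcriptional targets of p53 that act in cell cycle arrest and in feedback on p53 itself: CDKN1A, BTG2 and PLK2, MDM2, PPM1D and CCNG1, RRM2B, ZMAT3 and PHLDA3. They were chosen by name, and a probe set was taken where the platform annotation gave it 1 symbol and that symbol was 1 of these 9. This gave 40 probe sets of 8 genes, out of 18132 genes named in the series. No probe set had the symbol BTG2 in the annotation used, so the expression of BTG2 is not analysed here. Expression was measured in U87MG, an established human glioblastoma line, known to carry wild-type p53, obtained from ATCC and grown in DMEM with serum. There were 4 groups: a DMSO control, cells with mycophenolic acid (MPA) at 10 µM, cells with guanosine at 100 µM, and cells with both at these doses, and treatment lasted 24 h. MPA inhibits IMP dehydrogenase and so the synthesis of guanine nucleotides, and guanosine can supply these through salvage. Each group was read on 1 Affymetrix PrimeView array, so the spread between cultures is unknown and no test was possible. Every difference below is between single arrays, their number limits the precision, and the authors' RMA signal is relative to the other transcripts on the array.

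p53 is a transcription factor that is normally kept low because MDM2, a ubiquitin ligase, marks it for destruction. When the DNA is damaged, or when ribosome assembly in the nucleolus is disturbed, MDM2 is held off and p53 accumulates. It then raises genes that stop the cell cycle, above all CDKN1A, which encodes the CDK inhibitor p21, and at the same time genes that switch p53 off again, among them MDM2 and the phosphatase gene PPM1D. p53 binds DNA as a tetramer at pairs of a 10-base motif, the p53 decamer.

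Promoter sequences are shown because the members were all highest on the same array and because MDM2 has start sites that differ in a p53 motif. RefSeq windows of 300 bases (250 before to 50 after a start site, GRCh38.p14) matched 7 of the 9 members by symbol, in 12 windows, some of which overlap. PHLDA3 and RRM2B were not matched. Each window was searched for the p53 decamer without a mismatch, and for pairs of decamers, 0 or 1 base apart, that kept the central C and G of each and had up to 4 mismatches in all. Since the motif reads alike in both directions, a match on one strand is a match on the other. The 250 bases before the start are printed for CDKN1A (chr6:36678464-36678713, plus strand), PLK2 (chr5:58460087-58460336, minus strand), the first MDM2 start (chr12:68807922-68808171, plus strand) and the later MDM2 start (chr12:68808767-68809016, plus strand), with decamer matches in capitals.
CDKN1A: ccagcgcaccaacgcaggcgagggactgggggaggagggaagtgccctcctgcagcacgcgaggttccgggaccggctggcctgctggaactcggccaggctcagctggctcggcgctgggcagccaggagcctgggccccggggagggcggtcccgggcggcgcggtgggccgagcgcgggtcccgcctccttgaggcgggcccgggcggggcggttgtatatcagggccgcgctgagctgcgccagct
PLK2: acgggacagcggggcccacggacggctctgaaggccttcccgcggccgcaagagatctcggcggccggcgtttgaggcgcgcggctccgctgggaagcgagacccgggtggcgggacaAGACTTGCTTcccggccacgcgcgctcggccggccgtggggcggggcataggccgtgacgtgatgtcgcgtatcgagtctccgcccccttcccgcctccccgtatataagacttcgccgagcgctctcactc
MDM2 first start: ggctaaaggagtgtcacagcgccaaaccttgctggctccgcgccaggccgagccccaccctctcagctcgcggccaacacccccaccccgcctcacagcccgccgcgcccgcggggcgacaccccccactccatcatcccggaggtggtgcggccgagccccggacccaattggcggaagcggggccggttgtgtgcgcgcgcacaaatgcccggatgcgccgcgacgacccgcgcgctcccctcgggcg
MDM2 later start: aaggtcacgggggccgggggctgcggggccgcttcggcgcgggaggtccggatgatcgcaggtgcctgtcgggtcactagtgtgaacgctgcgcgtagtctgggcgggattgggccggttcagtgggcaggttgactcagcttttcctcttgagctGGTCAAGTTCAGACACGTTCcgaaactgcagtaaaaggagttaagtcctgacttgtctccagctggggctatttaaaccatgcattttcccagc
The MDM2 windows differ in the motif. The later start, which lies inside the gene and is known as the p53-responsive promoter, has a pair of decamers with 2 mismatches that begins 94 bases before it (chr12:68808923-68808942). No pair was matched in the windows of the first start. PLK2 has 1 decamer without a mismatch, 132 bases before its start, and ZMAT3 has a pair with 4 mismatches 83 bases before 1 of its starts (chr3:179071873-179071892, minus strand). The CDKN1A window has no match, and neither have those of CCNG1, PPM1D and BTG2; the CDKN1A sites known from the literature lie further upstream. Of all 35116 windows of this length, 6.63% hold a decamer without a mismatch and 8.25% hold such a pair, against 1 and 3 of the 12 member windows. Of these 3, 2 hold the same MDM2 site from starts 7 bases apart, so there are 2 distinct sites, in MDM2 and ZMAT3. The letters GGGCGG, the GC box bound by SP1, stand on either strand in 11 of the 12 member windows and in 45.0% of all windows, and the letters CATG in 3 of 12 and in 54.9%. The E-box letters CACGTG stand in 0 of 12 and in 7.26% of all windows, the letters TATAAA in 0 of 12 and in 11.5%, and the letters TTTGAA of the CHR element in 1 of 12 and in 15.2%. A match describes these letters only and does not show that p53 was bound there in these cells.

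The first comparison, MPA against control, is of a block in guanine nucleotide synthesis. All 8 measured members were higher on the MPA array. The difference reached 2-fold in 6 and 1.5-fold in 8, and was between 1.85-fold for CCNG1 and 4.64-fold for PLK2. Over all 10951 genes compared, 50.3% were higher by any size, 1.73% passed 2-fold upwards and 5.41% passed 1.5-fold. A gene was compared when the brighter of its arrays reached a floor of 63.0, the median signal of all probe sets that are not controls, and was read by the brightest of its probe sets over the 4 arrays, taking those ending in _x_at, which can bind several genes, only where there was no other. ZMAT3 entered through its MPA array alone, and so could only be higher. The members' median log2 difference was 1.43, and that of all genes 0.0024. Cell number and RNA per cell are not known here, so a change in 1 cannot be told from a change in the other. The members were chosen with earlier results of these data known, so these counts describe them and are no independent evidence of their direction.

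Among the arrest genes, CDKN1A encodes p21, which binds and blocks the CDKs that drive G1 and S phase. Its brighter probe set had a signal of 1649 in the control, 4961 with MPA, 1373 with guanosine and 1412 with both compounds. The other probe set read 276.1, 828.6, 223.0 and 239.9 in the same order. The MPA array was above the other 3 on both probe sets, with a log2 difference from the control of 1.59 on each (3.01-fold on the brighter), and the arrays with guanosine were the lowest. PLK2 encodes a polo-like kinase of the stress response and of synapses, which differs in role from the mitotic kinase PLK1. Its main probe set read 262.8 in the control, 1218 with MPA, 193.3 with guanosine and 191.9 with both. It had the largest difference of the members, 4.64-fold, and was 14th of the 10951 genes by MPA against control. The 2 next in brightness were 4.23-fold and 4.43-fold higher as measured, from below the floor in the control, and the dimmest, below the floor on all arrays, was 1.95-fold higher.

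The feedback genes encode proteins that lower p53 activity. MDM2 had 11 probe sets, more than any other member. The main one read 204.7 in the control, 446.2 with MPA, 224.0 with guanosine and 223.4 with both, and was 2.18-fold higher with MPA. The other 2 that were above the floor on every array, both ending in _x_at, read 205.2 and 135.2 in the control and 496.6 and 379.4 with MPA, which is 2.42-fold and 2.81-fold. Of the remaining 8, 2 passed the floor on the MPA array alone, at 1.89-fold and 1.90-fold, and 6 were below it on every array, with log2 differences between 0.0029 and 0.92. MDM2 makes many splice forms, and which of them each probe set reads was not checked. PPM1D encodes the phosphatase WIP1, which removes activating phosphates from p53 and from the kinases of the DNA damage response. Its main probe set read 185.6 in the control, 668.9 with MPA, 186.4 with guanosine and 169.1 with both, 3.60-fold higher with MPA. Its other 3 probe sets were 2.08-fold to 3.74-fold higher, 2 of them from below the floor in the control. CCNG1 encodes cyclin G1, which brings the phosphatase PP2A to MDM2. It read 1357, 2517, 1472 and 1510 on its main probe set. Here the control was the lowest array, and MPA was 1.85-fold above it. The 5 CCNG1 probe sets were all above the floor on all arrays and lay between 1.85-fold and 2.23-fold, so that 3 passed 2-fold and the main one did not.

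The other members act in DNA supply, RNA control and survival signalling. RRM2B encodes p53R2, a small subunit of ribonucleotide reductase that makes deoxynucleotides outside S phase. Its main probe set read 714.6 in the control, 1716 with MPA, 725.6 with guanosine and 677.2 with both. With MPA it was 2.40-fold above the control, while the other 3 arrays lay within a log2 range of 0.10. A further probe set above the floor on every array was 2.33-fold higher, and the 7 dimmer ones were between 1.33-fold and 1.83-fold higher, and RRM2B read as the median of its 9 probe sets on each array had a log2 difference of 0.71, short of 2-fold. ZMAT3 encodes a zinc finger protein that binds RNA. Its main probe set read 42.5 in the control, 140.4 with MPA, 39.6 with guanosine and 35.4 with both, so only the MPA array reached the floor, and against the floor it was at least 2.23-fold higher. The brighter ZMAT3 probe set, which ends in _x_at, read 428.9, 1543, 437.0 and 429.2, a difference of 3.60-fold, with the other 3 arrays close together. PHLDA3 encodes a small pleckstrin homology domain protein that holds back AKT. It read 764.5 in the control, 1432 with MPA, 870.6 with guanosine and 865.8 with both. All 3 PHLDA3 probe sets were above the floor on every array and between 1.87-fold and 1.93-fold higher with MPA, short of 2-fold.

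**Figure D1:**
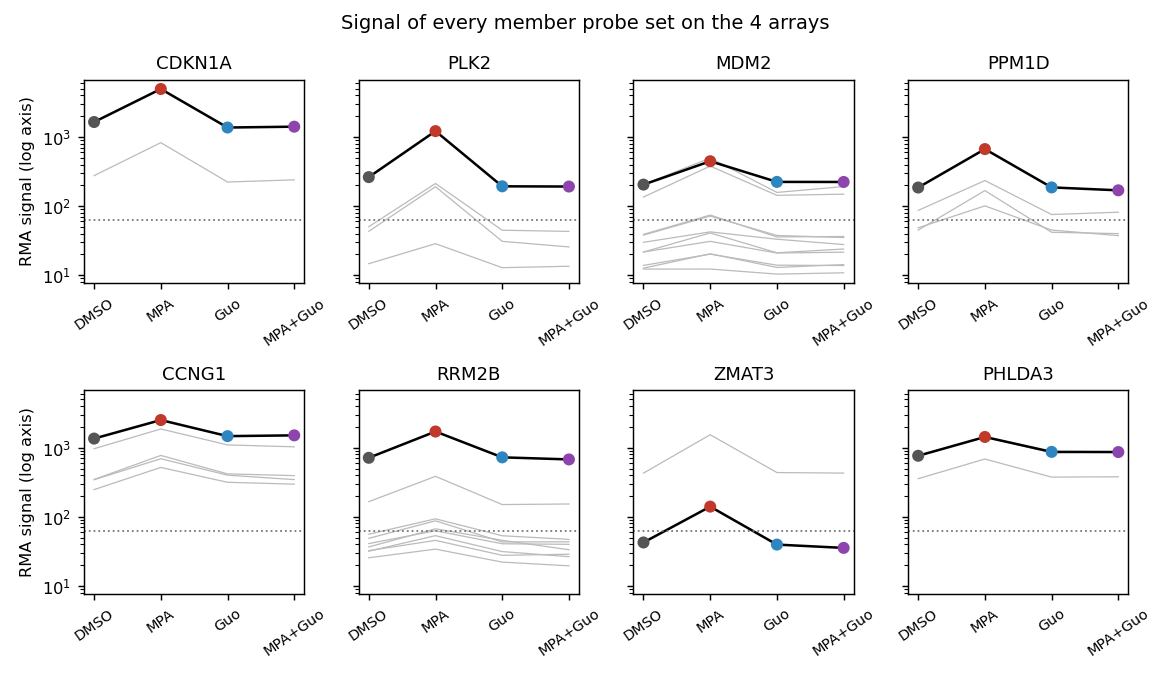
RMA signal (log axis) of every member probe set in DMSO control, MPA, guanosine (Guo) and MPA with guanosine (MPA+Guo), 1 array each; the black line with coloured points is the main probe set of the gene, grey lines are its other probe sets, and the dotted line is the floor of 63.0. In all 8 genes the main probe set peaks on the MPA array, and for ZMAT3 it is below the floor on the other 3.

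By probe set, 40 of 40 had their highest signal on the MPA array. The lowest was the control in 12, guanosine in 12 and both compounds in 16. For 11 of the 40, neither the control nor the MPA signal reached the floor, so their order rests on dim signals. How many of all probe sets were highest on the MPA array was not counted. Against the control alone, 48.2% of all 23675 probe sets compared were higher with MPA by any size. Of the 29 probe sets that reached the floor on the control or the MPA array, 19 passed 2-fold and 29 passed 1.5-fold, against 1.37% and 4.67% of all 23675 probe sets compared. A probe set that reached the floor only on the MPA array had to be higher there, and 10 of the 29 were of this kind. The 19 above the floor on all 4 arrays are free of this: all 19 were higher, 14 past 2-fold; the median was 1.22 and the range 0.89 to 2.21 on the log2 scale. The 11 below the floor on both arrays were also all higher, but between 0.0029 and 0.96, with a median of 0.54 and 0 past 2-fold. Probe sets of a gene share the RNA and are not replicates.

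**Figure D2:**
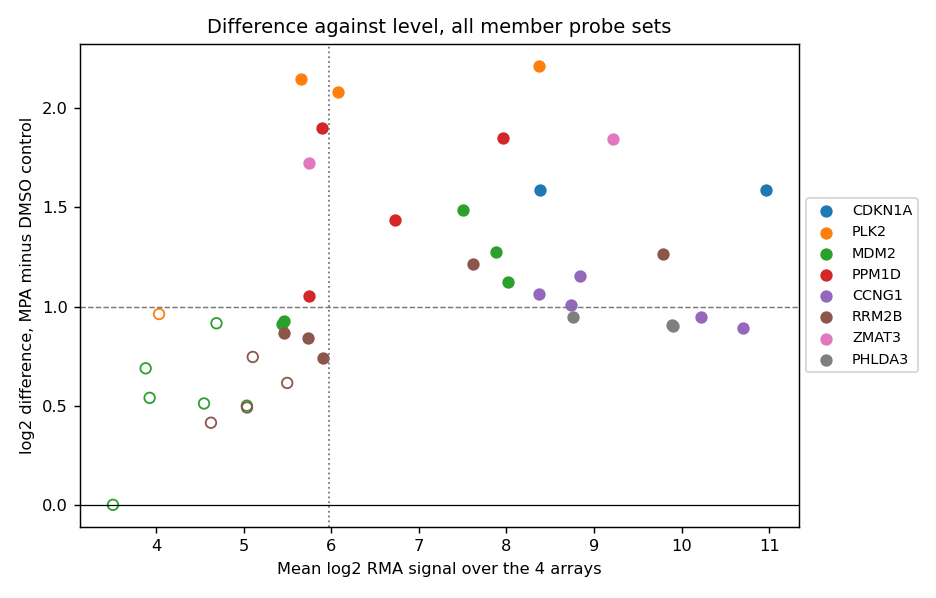
Log2 difference between the MPA and the control array for the 40 member probe sets (vertical) against their mean log2 signal over the 4 arrays (horizontal), coloured by gene; open points were below the floor on both arrays, the dotted line is the floor and the dashed line is 2-fold. Every point is above 0, and every open point is below the dashed line.

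In every measured member the MPA array was further from the other 3 than these were from each other. The 3 arrays other than MPA lay within a log2 range of 0.10 (RRM2B) to 0.45 (PLK2) of each other on the main probe sets. For comparison, this range had a median of 0.14 and a 95th percentile of 0.38 over 11019 genes. The MPA array was above the highest of those 3 by 0.72 (PHLDA3) to 2.21 (PLK2), which is 3.83 times the range of the other 3 arrays for PHLDA3 and 13.1 times for PPM1D. In 1.23% of the 11019 genes the MPA array was above the other 3 by 1 or more on the log2 scale, and 5 members were among them. MPA against guanosine takes the guanosine array as the reference. It gave 8 of 8 members higher, 5 past 2-fold and 8 past 1.5-fold, where 1.72% and 5.19% of all genes were. By any size, 49.9% of all genes were higher. MDM2 was the member past 2-fold against the control but not here, at 1.99-fold.

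To see MPA in cells supplied with guanosine, the array of both compounds was set against that of guanosine. No array of this comparison enters the first one. The 7 members compared had a median log2 difference of -0.0080, with 2 higher and 5 lower, 0 of them by 1.5-fold in either direction. Over all genes 0% were at least 1.5-fold higher there and 0.0189% lower, with a median of 0.018. By any size, 58.9% of all genes were higher and 40.8% lower. CDKN1A differed by 0.04, CCNG1 by 0.04, MDM2 by -0.0034, PHLDA3 by -0.0080, PLK2 by -0.011, RRM2B by -0.10 and PPM1D by -0.14. ZMAT3 was below the floor on both arrays of this comparison on its main probe set, and its brighter probe set differed by -0.03. PLK2, which had the largest MPA difference without guanosine, was thus among the members nearest to 0 with it. The MPA difference with guanosine minus that without was between -0.85 (CCNG1) and -2.22 (PLK2) in these 7, with a median of -1.36, and the median was -1.46 with the ZMAT3 probe set below the floor included.

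**Figure D3:**
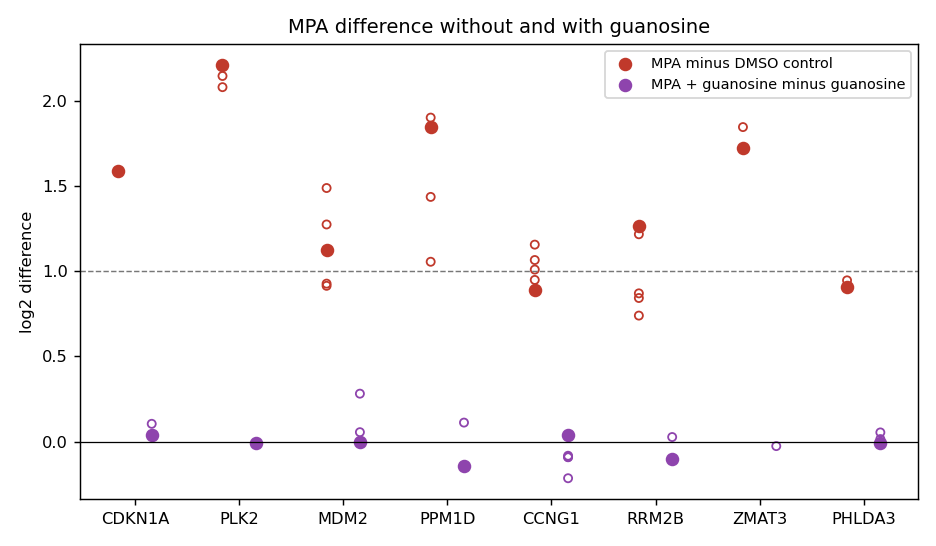
Log2 difference that goes with MPA in each member without guanosine (red, MPA minus control) and with it (purple, both compounds minus guanosine); filled points are the main probe set, open points the other probe sets that reached the floor on at least 1 of the arrays compared, and the dashed line is 2-fold. Red points of the main probe sets lie between 0.89 and 2.21, and purple ones between -0.14 and 0.04, with none for ZMAT3, whose main probe set was below the floor.

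The array of both compounds was also set against that of MPA, which gives guanosine in MPA-treated cells. This shares the MPA array with MPA against control, and its values are given side by side with no comparison of the pair. All 8 members were lower with guanosine added, 5 past 2-fold and 8 past 1.5-fold, against 1.55% and 4.77% of all genes. By any size, 48% of all genes were lower. PLK2 was 6.35-fold lower, PPM1D 3.96-fold, CDKN1A 3.51-fold, RRM2B 2.53-fold and MDM2 just under 2-fold, at 1.997. CCNG1 was 1.67-fold and PHLDA3 1.65-fold lower. ZMAT3, from its main probe set, was below the floor with both compounds, and its brighter probe set had a log2 difference of -1.85.

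Guanosine was then set against the control. Of 7 members compared, 5 were higher and 2 lower, with a median of 0.02, where 49.5% of all genes were higher and 50.2% lower. At 1.5-fold 0 members passed, where 0.366% of all genes were higher and 0.131% lower by that much. PLK2 at -0.44 and CDKN1A at -0.26 were the 2 lower members, and PHLDA3 at 0.19, MDM2 at 0.13 and CCNG1 at 0.12 the highest. The second CDKN1A probe set differed by -0.31, and the 2 PLK2 probe sets next in brightness by -0.17 and -0.48, both below the floor on these arrays. The 5 CCNG1 probe sets were all higher, by 0.12 to 0.35, and the 3 PHLDA3 probe sets by 0.08 to 0.19. PPM1D at 0.0057 was near 0, as was RRM2B at 0.02. MDM2 probe sets above the floor lay on either side of 0, at 0.13, 0.08 and -0.38. Both compounds against control shares the control array with this comparison. There PLK2 was at -0.45, CDKN1A at -0.22, PPM1D at -0.13, RRM2B at -0.08, MDM2 at 0.13, CCNG1 at 0.15 and PHLDA3 at 0.18, and 0 of 7 passed 1.5-fold, against 0.469% of all genes higher and 0.169% lower.

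Close relatives of the members were read on the same arrays. Of 33 relatives with a probe set, 24 reached the floor for MPA against control, with 11 higher and 13 lower and a median of -0.02. By any size, 50.3% of all genes were higher and 49.7% lower. At 2-fold 2 were higher, and at 1.5-fold 3 were higher and 2 lower, where 1.73%, 5.41% and 7.52% of all genes were. The 2 lower relatives of 24 are close to that last share. Cyclin G2 gene CCNG2, the relative of CCNG1, read 110.0 in the control and 283.6 with MPA, a log2 difference of 1.37 where CCNG1 had 0.89, and its other 2 probe sets above the floor were higher by at least 2-fold. TOB1, an antiproliferative gene of the BTG2 family, read 446.3 and 939.1, a difference of 1.07, with 1.17 on its other probe set. PLK3, which is itself a known p53 target, was above the floor on the MPA array alone and at least 1.63-fold higher than the control.

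The members' other relatives were lower or nearer to 0. MDM4, the partner of MDM2 that blocks p53 activity without degrading it, read 157.0 in the control, 104.6 with MPA, 169.2 with guanosine and 168.0 with both. MDM2 and MDM4 thus stood on opposite sides, and the other MDM4 probe sets above the floor differed by -0.59 to -0.53. In ribonucleotide reductase, RRM2, the small subunit gene of S phase, had a log2 difference of -0.48 and RRM1, the large subunit gene, -0.51 (-0.36 for RRM2 and -0.63 to -0.47 for RRM1 on their other probe sets), where RRM2B had 1.26. The mitotic kinase gene PLK1 was at -0.80 and the centriole kinase gene PLK4 at -0.24. CDKN1B, which encodes the CDK inhibitor p27, differed by -0.13, and CDKN1C was below the floor on all arrays. The main PHLDA1 probe set differed by -0.06 and the other 3 by -1.20 to 0.35, so that its probe sets did not give 1 direction. PHLDA2 was at 0.18, CCNI at 0.09, ZMAT2 at 0.28 and ZMAT5 at 0.20. BTG3 was at 0.20, BTG1 at -0.21 and TOB2 at -0.00065. The phosphatase genes related to PPM1D lay between ILKAP at -0.37 and PPM1N at 0.41, with PPM1G at -0.34, PPM1F at -0.18, PPM1B at -0.03, PPM1A at 0.20 and PPM1L at 0.22. Other probe sets above the floor differed from these main ones: those of PPM1F lay at -0.98 and -0.04, those of PPM1B at -0.24 and -0.18, and those of PPM1A between -0.11 and 0.36.

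**Figure D4:**
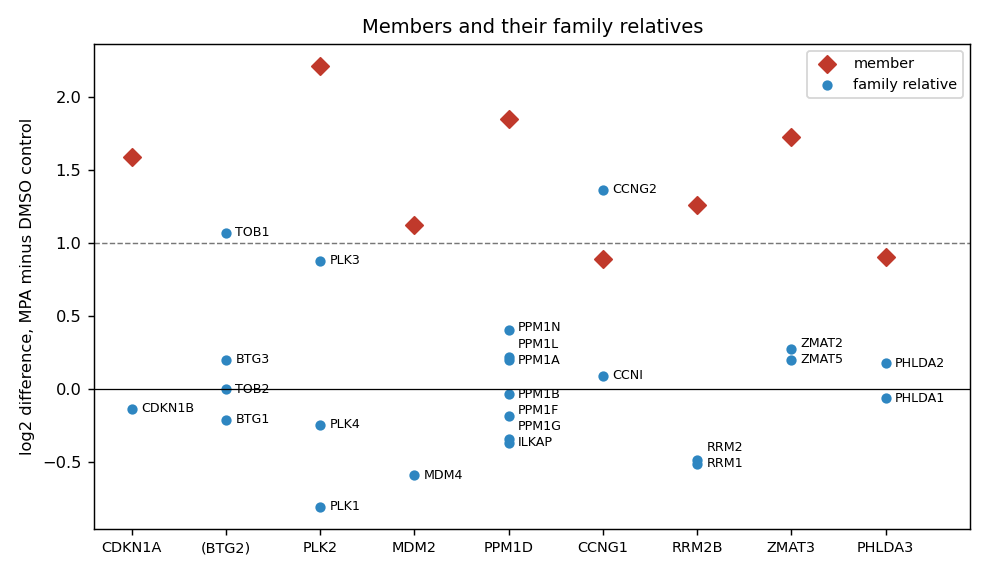
Log2 difference between the MPA and the control array for each member (red diamonds) and for its family relatives that reached the floor (blue points, named); the dashed line is 2-fold, and BTG2 has relatives but no value. MDM2 and MDM4, and RRM2B and RRM2, lie on opposite sides of 0, and CCNG2 lies above CCNG1.

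The other genes of the pathway come from lists taken from general knowledge of p53, but chosen with earlier results of these data known. Their counts describe these genes and are no independent evidence of their direction. By their main probe sets, other targets of p53 were higher with MPA in 40 of 40 genes compared, with a median of 1.14. Of these 22 passed 2-fold and 33 passed 1.5-fold, and 7 were below the floor in the control, so that they could enter only by being higher. Over all genes 50.3% were higher by any size, 1.73% at least 2-fold and 5.41% at least 1.5-fold. In the list of death and survival targets, TP53INP1 (3.10), TP53I3 (2.97) and SPATA18 (2.25 as measured, at least 4.59-fold against the floor) were the highest, and PERP (0.21), BID (0.03) and AIFM2 (0.02) the lowest of 15. The second TP53INP1 probe set differed by 0.08, and the other BID probe sets above the floor by -0.06 to 0.05. In the list of repair, metabolism and signalling targets, GDF15 (3.30), PTCHD4 (2.70 as measured) and SESN1 (2.47) had the highest values, and TNFRSF10D (0.46), CCNK (0.20) and LIF (0.13) the lowest of 25. PTCHD4 was below the floor in the control, and against the floor it was at least 3.99-fold higher, so its place in this order is not known. Other probe sets above the floor differed by 0.29 to 3.29 for GDF15 and by -0.08 to 1.08 for POLH. In both compounds against guanosine these 2 lists had medians of 0.02 and 0.05. The genes that control p53 were nearer to 0 by their main probe sets: of 20 regulators 9 were higher and 11 lower, with a median of -0.06. Of these 0 passed 2-fold and 2 were lower by 1.5-fold, which is close to the share of all genes, 7.52%. The 2 are CHEK1 and MDM4, which are also in other lists. RPS27L (0.43), itself a p53 target, KAT5 (0.37) and CHEK2 (0.37) were the highest, and CHEK1 (-0.83), MDM4 (-0.59) and the nucleolin gene NCL (-0.48) the lowest. The other 5 CHEK1 probe sets differed by -1.23 to -0.71, most of them past 2-fold. RPL5 and RPL11, whose proteins bind MDM2 when ribosome assembly fails, differed by -0.18 and 0.00098. CDKN2A, a gene known to be deleted in U87MG, was below the floor on every array, at 43.0 to 52.95.

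Cell cycle genes whose proteins p21 binds, and genes known to be repressed through p21, were lower with MPA. Whether this followed from CDKN1A was not tested. Of the cyclin and CDK genes and PCNA, whose proteins p21 binds, 11 of 11 were lower with MPA, 3 of them past 2-fold and 5 past 1.5-fold. The median was -0.56. Over all genes 49.7% were lower by any size, 1.42% at least 2-fold lower and 7.52% at least 1.5-fold lower. The lowest were the cyclin genes CCNE2 (-1.96), CCNE1 (-1.18) and CCNB1 (-1.14), and the nearest to 0 were CDK1 (-0.13), CDK6 (-0.09) and PCNA (-0.03). The second CCNE2 probe set differed by -1.15. Of the genes known to be repressed through p53, p21 and the DREAM complex, 16 of 16 were lower, 5 of them past 2-fold and 9 past 1.5-fold. The median was -0.79. CDC25A (-1.63), KIF23 (-1.17) and CCNB1 were lowest, while FOXM1 (-0.38), MYBL2 (-0.35) and CDK1 (-0.13) were nearest to 0. Other probe sets above the floor differed by -2.10 and -0.67 for CDC25A, -0.82 for KIF23, -0.01 for FOXM1 and -0.15 for CDK1. The control array was the highest of the 4 for all 16: the list was 16 of 16 lower with guanosine (median -0.35) and with both compounds (-0.32) as well. Against the guanosine array, MPA gave 15 of 16 lower, 1 past 2-fold and 5 past 1.5-fold, with a median of -0.35. Over all genes in MPA against guanosine, 50% were lower by any size, 1.39% at least 2-fold and 7.76% at least 1.5-fold. Against the control, 50.2% of all genes were lower by any size with guanosine and 45.5% with both compounds. The cyclin, CDK and PCNA list was 10 of 11 lower with guanosine (median -0.24) and 9 of 11 with both (-0.19), and in MPA against guanosine 8 of 11 were lower, 2 past 2-fold and 5 past 1.5-fold, with a median of -0.56. CCNB1 and CDK1 belong to both lists. Both compounds against guanosine gave medians of 0.0093 and -0.014 for these lists.

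**Figure D5:**
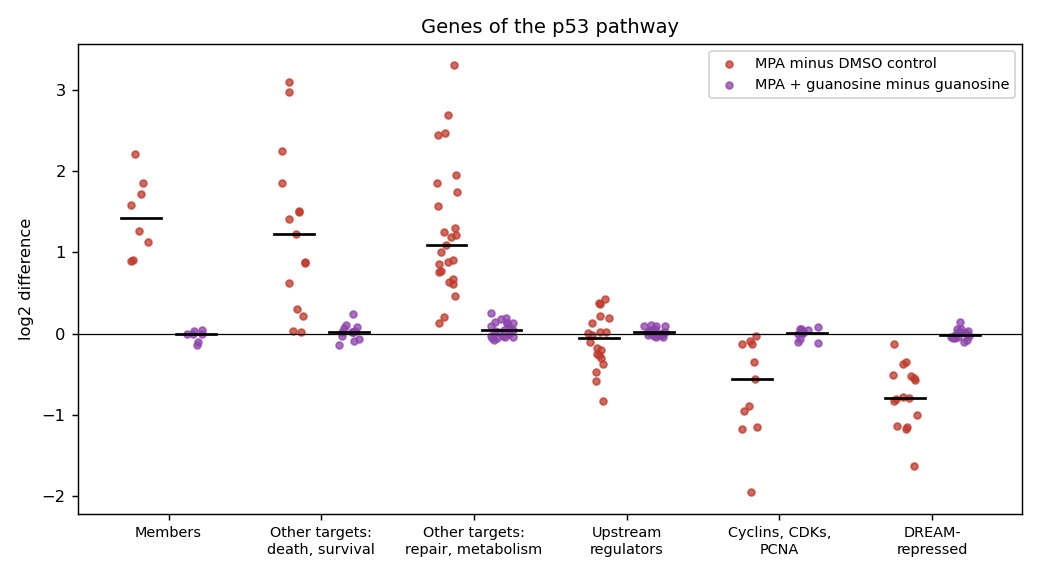
Log2 difference that goes with MPA without guanosine (red, MPA minus control) and with it (purple, both compounds minus guanosine) for the members and the gene lists of the p53 pathway; each point is 1 gene and black bars are medians. The red medians run from 1.43 for the members to -0.79 for the DREAM-repressed genes, and all purple medians lie between -0.014 and 0.05.

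The genes with the most similar pattern were found by the root mean square distance over the 3 log2 differences from control, 1 each for MPA, guanosine and both, among 11011 other genes. These differences share the control array. The 5 nearest to the members' median were AVPI1 (distance 0.04), LRRN4CL (0.04), the death receptor gene FAS (0.05), the small heat shock protein gene HSPB3 (0.07) and TYMSOS (0.09). The nearest single gene was EBI3 for CDKN1A (0.07), CSMD3 for PLK2 (0.25), TBC1D2 for MDM2 (0.02), the repair gene DDB2 for PPM1D (0.05), HERC5 for CCNG1 (0.02), FBXO22 for RRM2B (0.05), TNFRSF10C for ZMAT3 (0.08) and KLHL12 for PHLDA3 (0.02). ZMAT3 and TNFRSF10C were each below the floor on the 3 arrays other than MPA, so their distance rests mostly on values near background. FAS, DDB2 and FBXO22 were also in the lists of other p53 targets. PLK2 was the furthest from its nearest gene.

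Readings of the arrays as a whole are given beside these results. The median signal of the arrays was between 61.8 and 64.5. The 12 poly-A spike-in probe sets, RNAs added before labelling, were all lower on the MPA array than on the control, with a median log2 difference of -0.20, while the medians were 0.17 with guanosine and 0.18 with both; their part in the members' differences was not tested. Of 9 glioma cell markers 8 reached the floor, led by VIM at 19783 in the control, and their summed signal was between 53905 and 54810; GFAP (87.8 in the control) and OLIG2 (63.4) were close to the floor, and SOX2 was below it on all arrays. Endothelial markers reached the floor in 2 of 5 genes (summed signal 263.3 to 271.2), epithelial ones in 3 of 5 (232.8 to 294.2) and neuron markers in 4 of 5 (3005 to 3729). Leukocyte markers reached it in 1 of 4, CD68 (summed signal 1258 to 1931), while the defining marker PTPRC read 10.3 to 11.7. All 5 summed signals were highest on the MPA array, and their part in the members' differences was not tested.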

How the data were processed

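Expression in U87MG cells was read on 4 arrays, 1 for each of 4 conditions, and groups came from the treatment labels. The values are probe set intensities on the linear scale, deposited by the authors as RMA signal per the labels; the software was not given in the sources used here. RMA as usually run makes the arrays' distributions alike, so a change in total mRNA per cell would not show. The log2 of each intensity was taken. Of 49395 probe sets, 44988 had 1 gene symbol, 1832 several and 2569 were not listed; the 102 control probe sets entered no gene. All 8 members' symbols matched RefSeq by Entrez ID. The floor was 63.0 (log2 5.98). Every probe set of each member is given, the dimmer ones as a range; of each pathway list the 3 highest and 3 lowest are named, and every relative above the floor. Marker lists are given as sums; RPL5, RPL11 and CDKN2A were added for their roles after values were seen. The members, lists and rules were chosen with earlier results of these data known. Some genes of the lists are not reported here. The spacer and mismatch limits of the p53 motif search were set after seeing the data. Gene counting was run on simulated differences larger than 2-fold, with the noise set by hand. This checks the counting code and says nothing on the noise of these arrays. Alternatives were the median over probe sets of a gene, _x_at probe sets kept, cyclic loess (limma 3.58.1, 3 iterations), median centring, other floors, a pseudocount of 16 and 1.5-fold. Python 3.11.15 and pandas 2.3.3 were used.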

Additional observations from a re-analysis of the deposited data

Results flagged for a closer look

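With 1 array a condition, no group was large enough to look for a sample far from the others. Members are listed here because MPA or guanosine went with differences of opposite sign depending on whether the other compound was present; the differences between these differences were not tested, and most of the smaller values are close to 0. MPA in the presence of guanosine had a log2 difference below 0, where it was above 0 without guanosine, for ZMAT3 (-0.16, below the floor on both arrays), PPM1D (-0.14), RRM2B (-0.10), PLK2 (-0.011), PHLDA3 (-0.0080) and MDM2 (-0.0034). Guanosine without MPA had a log2 difference above 0, where it was below 0 in the presence of MPA, for PHLDA3 (0.19), MDM2 (0.13), CCNG1 (0.12), RRM2B (0.022) and PPM1D (0.0057). CDKN1A was in neither group: guanosine went with a lower signal both without and with MPA (-0.26 and -1.81).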

How the results depend on the processing

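Across 54 values of single members in MPA against control under the alternatives, 0 changed sign, and the same held for both compounds against MPA and for MPA against guanosine (54 values each). Signs changed in 2 of 44 values of guanosine against control, both for PPM1D, where the largest value involved had a size of 0.153. They also changed in 5 of 42 values of both compounds against guanosine (CCNG1, MDM2, PHLDA3 and PLK2), where the largest had a size of 0.083. With each gene as the median of its probe sets, which leaves 7 members because MDM2 is then below the floor, the members' median was 1.59 for MPA against control, -1.80 for both compounds against MPA and 1.77 for MPA against guanosine. With the floor at the 75th percentile (244.4), which leaves 7 members, these were 1.26, -1.34 and 1.24. With the pseudocount they were -1.46 for both compounds against MPA and 1.36 for MPA against guanosine, with 0.1 taken as the size of a change worth giving, since there were no replicates. At 1.5-fold in place of 2-fold, 8 genes were counted in both compounds against MPA and 8 in MPA against guanosine. Of all genes 4.77% were that much lower and 5.19% that much higher in these comparisons. By probe set, 29 were counted in MPA against control and 28 in MPA against guanosine, where 4.67% and 4.49% of all probe sets were that much higher. With the higher floor, 10 of 18 probe sets passed 2-fold in both compounds against MPA and 9 of 18 in MPA against guanosine, where fewer probe sets entered. The share of all probe sets at that floor was not counted. Of 292 values of single members under alternatives, 272 moved by less than 0.1. Many of these could not move, and this holds for the counts of signs too. The other floors only decide which members enter, and keeping _x_at probe sets changed the probe set of ZMAT3 alone. Median centring shifted all members of a comparison by the same amount, less than 0.1. As the median of its probe sets, RRM2B was no longer past 2-fold, at 0.71 for MPA against control, -0.75 for both compounds against MPA and 0.63 for MPA against guanosine, while CCNG1 passed 2-fold in MPA against control, at 1.16. No paired analysis was possible because each condition had 1 array. The count at 1.5-fold for genes, the pseudocount and centring for probe sets, and all alternatives for the MPA difference with and without guanosine were chosen after seeing the data. Dim probe sets and single arrays limit these values, and the spread between cultures is unknown.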

Other observations

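Genes repressed through p53, p21 and the DREAM complex were also lower with guanosine alone, on an array where CDKN1A was lower too. All 16 were below the control, with a median log2 difference of -0.35 and a range of -0.68 (CDC20) to -0.10 (CHEK1), where 50.2% of all genes compared were lower by any size. CDKN1A differed by -0.26 and -0.31 on its probe sets in that comparison, whereas with MPA it was higher and the same 16 genes were lower. With both compounds 16 of 16 were lower too, with a median of -0.32, where 45.5% of all genes were lower by any size. The control array was thus above all 3 others in every gene of this list. The cause was not tested.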
